A study of Mus musculus with 12 samples.

Results

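The ATP-binding cassette (ABC) transporters are a gene family whose products use ATP to move lipids, sterols, organic anions, drugs, peptides or cofactors across membranes. Members were taken from the deposited tables by symbol, as the letters Abc, a subfamily letter from a to g, a number and, in some, a last letter, with protein_coding as the biotype. This gave 37 genes of the 15838 in the tables, or of the 12994 that are protein coding. RNA was sequenced from corneal endothelial cells (CEC) on peeled Descemet membrane, the basement membrane of the posterior cornea, in 12 libraries from mice aged 10 weeks. The 4 groups of 3 libraries were KO (Slc4a11-/-) male, KO female, WT (Slc4a11+/+) male and WT female. The KO mice are C57BL/6 mice with a germline deletion within *Slc4a11*, a membrane transporter gene of the endothelium, and WT mice were littermates from crosses of heterozygotes. The sample records describe pooled membranes and the study's methods describe membranes taken as pairs, so the number of mice behind a library is uncertain.

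In the cornea the endothelium is a single layer of cells that pumps fluid out of the stroma and so keeps it clear, and ABC proteins are among the ATP-driven proteins of its membranes. Among the members measured here, subfamily A holds lipid transporters and B peptide and mitochondrial transporters. C holds exporters of organic anions together with the sulfonylurea receptors, D mainly the fatty acyl-CoA transporters of peroxisomes, and G sterol and drug exporters. Members without a value are left out of this outline. Subfamilies E and F have the ATP-binding domains but no membrane domain, and act on ribosomes and translation. Some members hold 2 membrane domains and 2 ATP-binding domains in 1 chain, whereas the members of D and G and those of B measured here hold 1 of each and work in pairs.

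The only level the tables give for a gene is the authors' mean over all 12 libraries, in log2 CPM, where CPM are the reads of a gene scaled to the reads of its library. This mean mixes KO with WT and males with females, and it comes without a spread, so no comparison between genotypes or sexes was made here and no value below has an error between libraries. Values in CPM below are this mean taken back from the log2 scale, so they are geometric means over the libraries. Any offset that the authors' fit added before the log2 step is still in them, and matters most for the lowest values. Shares of summed CPM are sums of such means and not exact shares of reads. The depth of each library is unknown from these tables. A long gene yields more reads than a short gene at the same number of transcripts, and levels of different genes were therefore compared after division by the exonic length of each gene, as log2 CPM per kilobase. Other lengths were also tried (the coding length, the longest transcript and the transcript with the longest coding sequence), and the lowest and highest rank of a gene over the 4 lengths shows how far its place depends on that choice. In bulk RNA, fewer cells of a type and less RNA per cell cannot be told apart.

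Markers fixed for the tissue showed the endothelium in these libraries, with all 7 corneal endothelial markers between 567 and 7100 CPM (*Col8a2*, a collagen of Descemet membrane, was the highest). These 7 include *Slc4a11* itself, which is deleted in part in the KO mice, so its mean mixes both genotypes. Of the 5 stromal markers, 4 had a value, from 342 to 3796 CPM. The 5 corneal epithelial markers reached at most 34.8 CPM, the 5 pigment cell markers 9.59 CPM, the 4 leukocyte markers 19.8 CPM, the 3 lens markers 1.94 CPM and the 2 photoreceptor markers 1.58 CPM. Of the 4 blood vessel markers, *Kdr* stood at 82.1 CPM, while *Pecam1*, *Cdh5* and *Vwf* were at 1.90, 1.64 and 0.535 CPM. Of the 4 nerve markers 2 had values, and of the 3 muscle markers *Myh11* (206 CPM), and the 4 red cell markers were not analysed here. The part of stromal RNA in the levels of the ABC members was not tested.

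The family as a whole sat near the middle of the protein-coding genes. The median member was at 4.53 log2 CPM (23.1 CPM), beside 4.36 (20.6 CPM) for the median protein-coding gene, and 21 of the 37 members were above the latter. At a threshold of 1 CPM, 36 of the 37 members (97.3%) were expressed, beside 95.3% of protein-coding genes, and at 10 CPM 26 members (70.3%) beside 66.7%. These genes had all passed the authors' own filter, whose value is not given in the sources used here, so the shares are not shares of the family in the genome. Per kilobase of exonic length the median member was at 2.29 against 2.19 for protein-coding genes, a difference of 0.10 that turned to -0.69 with the coding length, -0.24 with the longest transcript and -0.41 with the transcript of the longest coding sequence. The spread within the family was wide. The highest and the lowest member differed by 8.17 in log2 CPM, a 289-fold range, and by 8.84 in log2 CPM per kilobase, a 458-fold range.

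The GENCODE M21 annotation of GRCm38 has 50 protein-coding genes with a symbol of the same form. All 10 genes of subfamily C with such a symbol, the 3 of F and the 1 of E had a value. So did 11 of 16 in A, 4 of 10 in B, 3 of 4 in D and 5 of 6 in G. The other 13 genes were not analysed here, nor was *Cftr*, an ABC gene with a symbol of another kind. In the same way, 12972 of all 22028 annotated protein-coding genes had a value, and 252 of 371 with the symbol of a solute carrier (Slc).

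**Figure D1:**
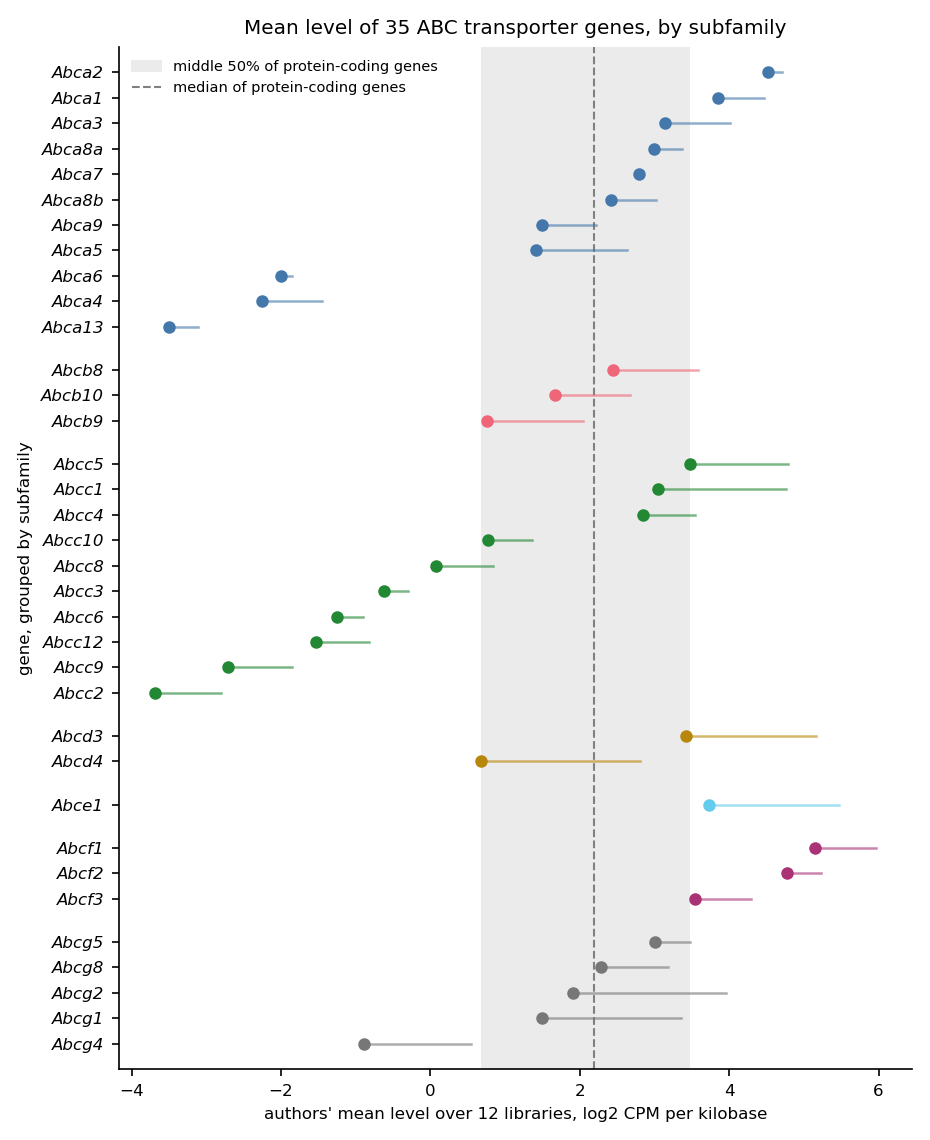
Mean level of 35 ABC genes, grouped by subfamily, as log2 CPM per kilobase on the x axis (the authors' mean over 12 libraries). Points use the exonic length of the gene and lines span the values under the 4 lengths, the grey band is the middle 50% of protein-coding genes and the dashed line their median at 2.19. The 4 genes of subfamilies E and F lie from 3.54 to 5.15, while subfamily C runs from -3.69 to 3.48.

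The 4 genes without membrane domains were the highest group, with a median of 4.26 log2 CPM per kilobase and values from 3.54 to 5.15. *Abcf1*, whose product binds initiation factor eIF2 and promotes translation initiation, was the highest member of the whole family. It occupies bases 35956819 to 35969761 of chromosome 17 (minus strand), stood at 157 CPM or 5.15 log2 CPM per kilobase, above 93.7% of protein-coding genes, and ranked 1 under all 4 lengths. The coding sequences of *Abcf1*, *Abcf2* and *Abcf3* hold 2511, 1884 and 2127 bases. *Abcf2*, on chromosome 5 from 24565345 to 24577467, was at 70.5 CPM and 4.78 per kilobase, with a rank of 2 to 3. *Abcf3*, on chromosome 16 from 20548577 to 20561379, was the lowest of its subfamily at 41.5 CPM and 3.54 per kilobase. *Abce1*, which splits the ribosome into its subunits after termination, lies on chromosome 8 from 79683462 to 79711740. It stood at 79.9 CPM and 3.73 per kilobase, and ranked between 2 and 5 depending on the length, because its exonic length of 6004 bases is large beside its coding length of 1797 bases. These 4 genes carried 22.1% of the summed CPM of the family.

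Of the genes fixed as partners of these proteins on ribosomes, all were below the 4 ABC genes per kilobase of exonic length. This order was not computed under the other lengths. In CPM, *Gcn1* (142 CPM) was above *Abce1*, *Abcf2* and *Abcf3*. *Pelo* and *Hbs1l*, which recognise stalled ribosomes before *Abce1* splits them, were at 0.86 and 1.10 log2 CPM per kilobase. *Gcn1*, *Eif2ak4* and *Eif2s1*, of the GCN2 pathway and the eIF2 complex, were at 2.99, 2.47 and 2.86. All 5 genes of this list were at or above 1 CPM, with a median of 2.47 per kilobase, beside 2.19 for protein-coding genes.

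Subfamily A had the largest share of the family's summed CPM, 39.2% from 11 genes, and spanned from 4.52 to -3.50 log2 CPM per kilobase. *Abca2*, a transporter of endosomes and lysosomes linked to sterol and sphingolipid handling, was the member with the highest CPM, at 191 CPM or 12.1% of the family's summed CPM. It lies on chromosome 2 from 25428703 to 25448540 and was at 4.52 per kilobase (rank 3 to 7). *Abca1*, the exporter of cholesterol and phospholipid to apolipoprotein A-I, lies on chromosome 4 from 53030787 to 53159895. It was at 149 CPM and 3.85 per kilobase (rank 4 to 8). The coding sequences of *Abca2*, *Abca1* and *Abca3* hold 7299, 6783 and 5112 bases. *Abca3*, which loads phospholipid into the lamellar bodies of the lung, was at 82.4 CPM and 3.14 per kilobase, on chromosome 17 from 24351950 to 24410201. Of its exonic bases 914, or 9.75%, also belong to *D330041H03Rik* on the opposite strand, and the counting that the authors used is not stated to keep strand. *Abca7*, a close relative of *Abca1*, was at 46.8 CPM and 2.79 per kilobase, a level 2.08-fold lower than that of *Abca1* per kilobase. In all, 8 members share exonic bases with a gene on the opposite strand, from 0.744% of the exonic length in *Abcc10* to 10.3% in *Abcb10*.

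A group of 5 members of subfamily A lies side by side on the minus strand of chromosome 11, in the order *Abca8b*, *Abca8a*, *Abca9*, *Abca6* and *Abca5*, with gaps of 29788, 4770, 8623 and 17592 bases. Their levels were uneven. *Abca8a*, from 110025634 to 110095978, was at 50.2 CPM and 3.00 log2 CPM per kilobase, and *Abca8b* at 39.5 CPM and 2.41. *Abca9* and *Abca5*, the latter a lysosomal protein, were at 22.6 and 30.5 CPM, or 1.49 and 1.42 per kilobase. *Abca6* stood at 1.34 CPM and -2.01, 5.01 below *Abca8a* on the log2 scale per kilobase, a 32.1-fold lower level that was at least 5.01 under each of the 4 lengths. *Abca8a* and *Abca8b* are close copies of each other with the same coding length of 4860 bases, so reads may have been split between them and their difference of 0.59 is uncertain.

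*Abca4* and *Abca13* were the other members of subfamily A below 0 log2 CPM per kilobase, and *Abca6* was above *Abca4* with the exonic length and below it with the other 3 lengths. *Abca4*, the retinoid flippase of photoreceptor discs, was at 2.52 CPM and -2.25 log2 CPM per kilobase, beside 1.58 CPM for *Sag*, a photoreceptor gene. Whether these reads share a source was not tested. *Abca13*, on chromosome 11 from 9191942 to 9684259, has the longest coding sequence of the family at 15102 bases and was at 1.74 CPM and -3.50 per kilobase.

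Of the 11 genes fixed for the liver X receptors (LXR) and sterol efflux, 10 had a value, all of them at or above 1 CPM, with a median of 3.26 per kilobase. *Apoe*, a lipoprotein component that accepts cholesterol, reached 9231 CPM, above 99.98% of protein-coding genes per kilobase, and *Apod*, a lipocalin found on lipoproteins, 850 CPM. The receptor gene *Nr1h2* was at 68.4 CPM and *Nr1h3* at 11.9 CPM, or 4.35 and 2.25 per kilobase, and their partner *Rxra* was at 125 CPM. *Mylip*, an LXR target that lowers the LDL receptor, was at 29.0 CPM.

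Subfamily G, the other sterol exporters, ranged from 3.00 to -0.89 log2 CPM per kilobase. *Abcg1*, which passes cholesterol to high-density lipoprotein, was at 20.5 CPM and 1.49 per kilobase, 2.36 below *Abca1* under the exonic length and 1.10 below it under another of the 4 lengths. *Abcg4*, a close relative of *Abcg1*, was the lowest of the subfamily at 2.82 CPM and -0.89, on chromosome 9 from 44273188 to 44288615. *Abcg2*, which exports drugs and urate, was at 30.7 CPM and 1.91 per kilobase, and its rank ran from 12 to 20. *Abcg5* and *Abcg8*, whose products join into the exporter of plant sterols and cholesterol known from liver and intestine, both had values. The coding sequences of *Abcg5* and *Abcg4* hold 1956 and 1938 bases. *Abcg5*, at bases 84658234 to 84683011 of chromosome 17 (minus strand), was at 21.7 CPM and 3.00 per kilobase, the highest of its subfamily with the exonic length and both transcript lengths but below *Abcg2* with the coding length (3.47 against 3.96). *Abcg8*, at bases 84676302 to 84700333 (plus strand), was at 18.3 CPM and 2.29, so that the pair differed by 0.71 (from 0.29 to 0.89 over the 4 lengths). Their gene records overlap by 6710 bases on opposite strands and share 82 exonic bases, or 3.02% of the exonic length of *Abcg5*. With that overlap and the unknown setting of the counter for strand, reads of one gene may have been counted for the other.

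The C subfamily split into a few well-expressed organic anion exporters and a longer row of genes near the bottom of the family. *Abcc5* and *Abcc4*, which export cyclic nucleotides and other organic anions, were at 119 and 46.1 CPM, or 3.48 and 2.85 per kilobase. *Abcc1*, the exporter of glutathione conjugates also known as MRP1, was at 124 CPM and 3.04 per kilobase. *Abcc5* lies on chromosome 16 from 20331303 to 20426394, and *Abcc1* on the same chromosome from 14361558 to 14475737. Their coding sequences hold 4308 and 4584 bases. *Abcc10* followed at 11.7 CPM and 0.77. Below it came *Abcc3*, a conjugate exporter of the basolateral membrane (3.71 CPM, or -0.62 per kilobase), *Abcc6*, which is needed for release of ATP from the liver (2.41 CPM, or -1.25), and *Abcc12* (2.31 CPM, or -1.53). *Abcc2*, the exporter of conjugates at the apical membrane of hepatocytes, was the lowest of all 37 members and the 1 member under 1 CPM. It lies on chromosome 19 from 43782192 to 43840740 and was at 0.662 CPM and -3.69 per kilobase, 106-fold below *Abcc1*. With its coding length of 4629 bases in place of the exonic length it ranked 36, above *Abca13*.

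The sulfonylurea receptors, which form the outer ring of ATP-sensitive potassium (KATP) channels, were unequal. *Abcc8* was at 8.52 CPM and 0.08 log2 CPM per kilobase and *Abcc9* at 1.28 CPM and -2.71, a 6.87-fold difference. Of the pore genes of these channels, *Kcnj11* was at 3.68 CPM and 0.00 per kilobase, and *Kcnj8* was not analysed here. *Kcnj11* was close to *Abcc8* per kilobase of exonic length but below it in CPM, and the other lengths were not compared. *Abcc8* and *Abcc6* are neighbours on chromosome 7 with a gap of 74220 bases.

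Around the exporters of conjugates, all 6 genes fixed for glutathione had a value, from 17.6 to 184 CPM. The transferases *Gstm1*, *Gsta4* and *Gstp1* were at 184, 107 and 41.4 CPM, and *Gclc* and *Gclm*, the subunits of the enzyme that starts glutathione synthesis, at 36.3 and 33.3 CPM. Of 4 receptors and factors that sense foreign compounds, *Ahr* was at 107 CPM and *Nfe2l2* (NRF2) at 84.6 CPM, and *Nr1i2* and *Nr1i3* were not analysed here.

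**Figure D2:**
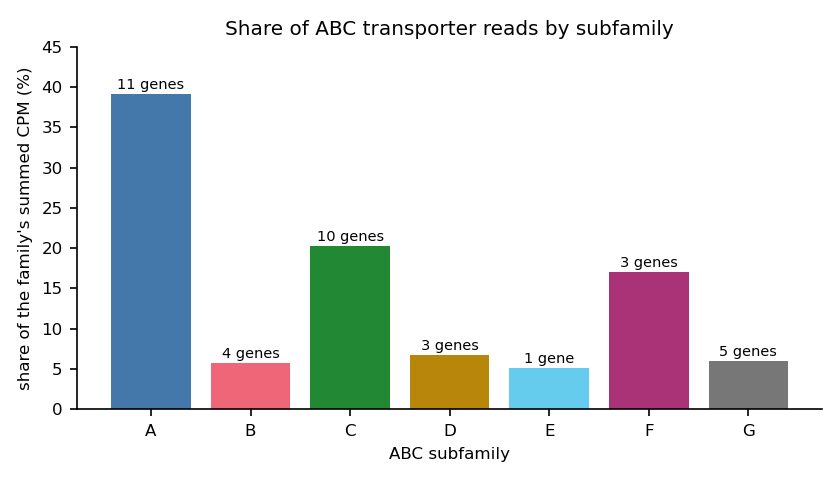
Share of the summed CPM of the 37 members held by each subfamily, in percent, with the number of genes above each bar. Subfamily A holds 39.2%, C 20.3% and F 17.0%, while the share is not divided by gene length and so favours the long genes of A and C.

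The summed CPM was concentrated in a few genes. The 5 members with the highest CPM, *Abca2*, *Abcf1*, *Abca1*, *Abcc1* and *Abcc5*, held 46.9% of it. By structure, the 21 members with 2 membrane domains in 1 chain had a median of 1.42 log2 CPM per kilobase (from -3.69 to 4.52) and the 12 that work in pairs a median of 2.10 (from -0.89 to 3.42). The 4 without membrane domains had the highest median and those with 2 the lowest under each of the 4 lengths. Across the 37 genes, Spearman's rho of the coding length with log2 CPM was -0.04 and with log2 CPM per kilobase -0.22. The latter level has length in its denominator, and the genes share the same libraries.

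In subfamily D, which brings fatty acyl-CoA into peroxisomes for oxidation, *Abcd3* on chromosome 3 from 121758774 to 121815302 was the highest at 70.6 CPM and 3.42 log2 CPM per kilobase (rank 4 to 8, coding length 1977 bases). *Abcd4*, which releases cobalamin from lysosomes and is not a peroxisomal transporter, was the lowest of D at 12.7 CPM and 0.67, on chromosome 12 from 84601464 to 84617413. Its rank was 27 with the exonic length of 8006 bases and 22 with the coding length of 1818 bases. With the transcript of the longest coding sequence, of 2309 bases, its rank was 18. The partner of *Abcd4* in that step, *Lmbrd1*, was at 87.7 CPM and 3.88 per kilobase, and all 5 cobalamin genes had a value (median 3.01). Among peroxisomal genes, *Pex19*, *Pex3* and *Pex16*, which insert membrane proteins such as these transporters into peroxisomes, were at 3.60, 1.34 and 2.38 log2 CPM per kilobase.

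The 4 B members, of which *Abcb9* is the one outside mitochondria, had a median of 2.06 log2 CPM per kilobase. Among the mitochondrial members, *Abcb8*, part of a mitochondrial potassium channel, was at 25.7 CPM and 2.44, and *Abcb10*, which takes part in haem synthesis, at 13.7 CPM and 1.67. *Abcb10* shares 444 exonic bases (10.3%) with *Gm45890* on the opposite strand. The lowest was *Abcb9*, a lysosomal peptide transporter on chromosome 5 from 124061530 to 124095798, at 9.45 CPM and 0.76 (coding length 2286 bases). All 7 genes fixed for iron-sulfur clusters and haem had a value, up to 83.5 CPM for *Fech*, the last enzyme of haem synthesis, with a median of 2.00 per kilobase.

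*Tap1* and *Tap2*, ABC genes of subfamily B with symbols of another kind, move peptides into the endoplasmic reticulum for loading onto major histocompatibility complex class I. They were at 14.0 and 16.5 CPM, or 1.35 and 2.13 per kilobase. The other genes of the peptide loading list, *Tapbp*, *B2m*, *Calr* and *Pdia3*, were at 155, 170, 705 and 564 CPM.

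**Figure D3:**
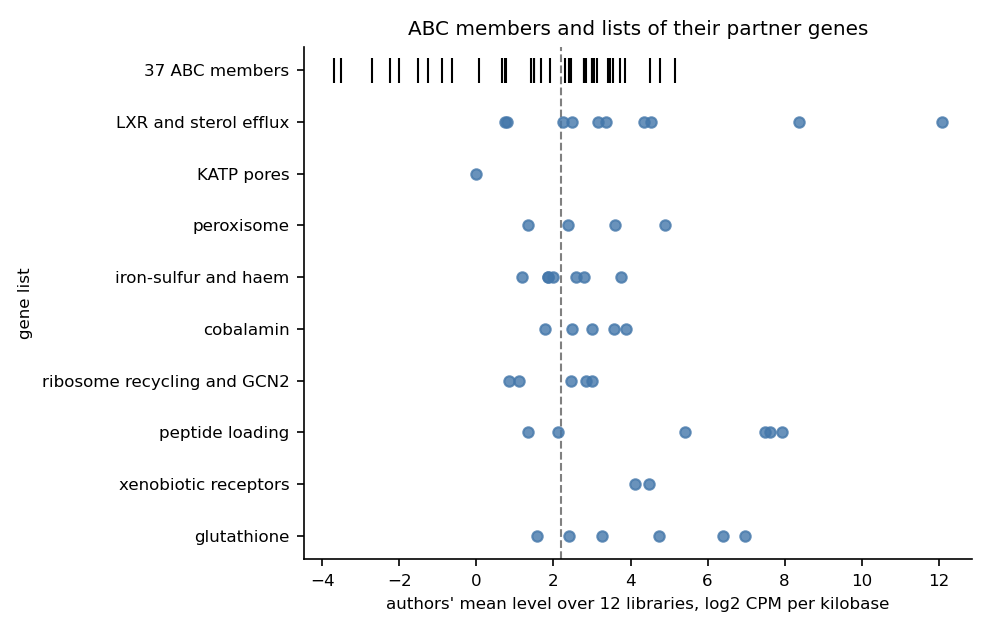
Level of the 37 members (ticks in the top row) and of genes in 9 lists of partners (points), as log2 CPM per kilobase on the x axis, with the median of protein-coding genes as the dashed line at 2.19. The LXR, peptide loading and glutathione lists reach higher than any ABC member, with *Apoe* at 12.08, *Calr* at 7.94 and *Gstm1* at 6.96, and the 1 KATP pore gene lies at 0.00.

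Neighbouring members ranged from near-equal to far apart in level. Among 8 neighbouring pairs with a gap of at most 200000 bases, the median difference was 1.42 log2 CPM per kilobase, beside 2.15 for all 666 pairs of members and 2.13 for the 122 pairs within a subfamily. The smallest difference was 0.07, between *Abcc5* and *Abcf3* on chromosome 16, and the largest 3.50, between *Abca9* and *Abca6*. The 8 pairs share genes and are too few to compare with the rest, and no test was made.

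RefSeq promoter windows of 300 bases (250 before and 50 after a start, GRCm38.p6) were matched to 26 of the 37 members, with the start nearest the 5′ end of the GENCODE gene (at most 329 bases away, except 14096 bases for *Abcc12*). Among the 11 members without a window were *Abca6*, *Abcb8*, *Abcc1*, *Abcc3*, *Abcc6*, *Abcc8*, *Abcd4*, *Abcg1* and *Abcg4*. The ratio of observed to expected CpG was over 0.6 in 17 of the 26 windows, beside 35.8% of all 32851 windows in the table. The members have 1 window each, whereas all windows hold several starts for some genes and were not limited to genes with a value. Shares of all windows, here and for the motifs below, are therefore not a like background for the members. Members over that ratio had levels from -2.25 to 5.15 log2 CPM per kilobase (median 3.14) and the other 9 from -3.69 to 3.00 (median 1.49), so the groups overlapped. Over the 26 genes Spearman's rho between the ratio and the level was 0.63, as a description across genes of 1 family measured in the same libraries. *Abcg5*, *Abca8a*, *Abcg2* and *Abca9* had ratios of 0.245, 0.277, 0.160 and 0.131 at levels of 3.00, 3.00, 1.91 and 1.49, whereas *Abca4* had 0.630 at -2.25.

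**Figure D4:**
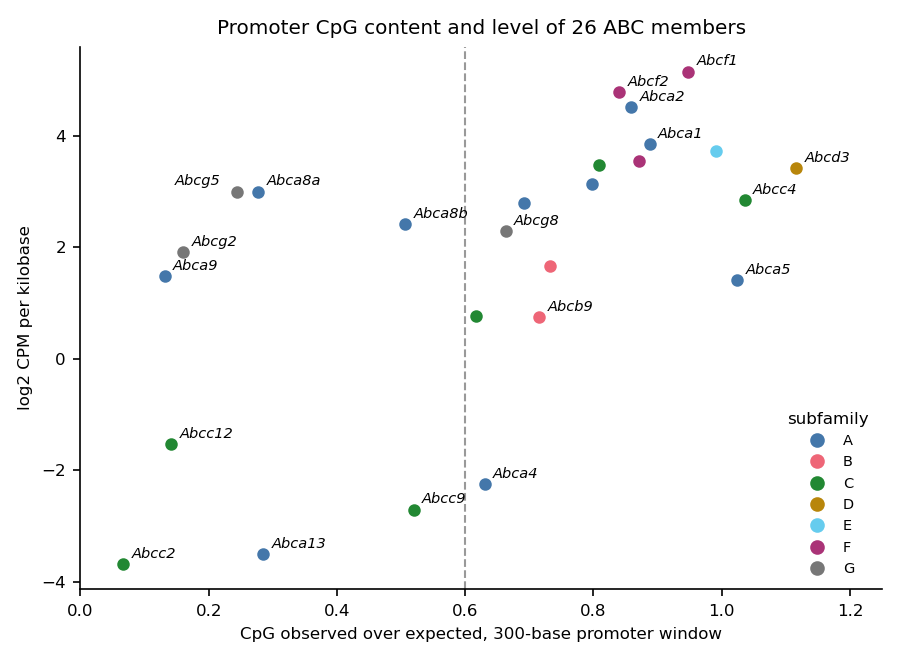
Level of 26 members (log2 CPM per kilobase, y axis) against the ratio of observed to expected CpG in a promoter window of 300 bases (x axis), coloured by subfamily, with a dashed line at 0.6. Most members with a high level lie right of the line, up to *Abcf1* at 5.15, and *Abcg5* and *Abca8a* reach 3.00 left of it.

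The windows of the highest member, *Abcf1*, and of the lowest, *Abcc2*, are shown as the extremes of level, followed by those of *Abcg5* and *Abcg8*, whose starts face away from each other. Letters in capitals mark the GC box GGGCGG on either strand, a motif bound by SP1 and held by 35.7% of all windows and by 13 of the 26 members' windows. Each sequence is given from 5′ to 3′ on the strand of its gene, at chr17:35969701-35970000 (minus) for *Abcf1*, chr19:43782058-43782357 (plus) for *Abcc2*, chr17:84682962-84683261 (minus) for *Abcg5* and chr17:84682871-84683170 (plus) for *Abcg8*.
Abcf1: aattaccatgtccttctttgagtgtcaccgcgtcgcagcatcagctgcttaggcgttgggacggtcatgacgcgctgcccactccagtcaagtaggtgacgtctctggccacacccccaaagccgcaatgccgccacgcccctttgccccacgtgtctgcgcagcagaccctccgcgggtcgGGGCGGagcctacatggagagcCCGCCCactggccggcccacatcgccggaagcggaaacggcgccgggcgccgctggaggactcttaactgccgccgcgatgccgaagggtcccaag
Abcc2: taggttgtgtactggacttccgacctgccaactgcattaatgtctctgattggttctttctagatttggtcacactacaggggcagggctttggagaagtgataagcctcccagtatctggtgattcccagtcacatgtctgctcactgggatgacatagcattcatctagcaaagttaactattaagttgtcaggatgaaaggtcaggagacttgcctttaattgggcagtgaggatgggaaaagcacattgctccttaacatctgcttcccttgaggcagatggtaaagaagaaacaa
Abcg5: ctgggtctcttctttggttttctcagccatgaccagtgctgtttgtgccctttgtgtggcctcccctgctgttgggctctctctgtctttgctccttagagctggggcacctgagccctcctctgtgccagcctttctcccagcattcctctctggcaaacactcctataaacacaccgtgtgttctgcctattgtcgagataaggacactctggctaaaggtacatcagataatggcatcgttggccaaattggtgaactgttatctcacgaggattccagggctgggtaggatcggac
Abcg8: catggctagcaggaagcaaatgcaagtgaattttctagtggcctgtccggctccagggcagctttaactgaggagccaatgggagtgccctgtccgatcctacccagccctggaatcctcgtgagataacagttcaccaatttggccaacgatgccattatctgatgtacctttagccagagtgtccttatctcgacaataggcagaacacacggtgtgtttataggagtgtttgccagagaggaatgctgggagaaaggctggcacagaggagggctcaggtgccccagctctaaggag

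The *Abcf1* window had 31 CpG, a ratio of 0.948 and 2 GC boxes, and the *Abcc2* window 1 CpG, a ratio of 0.0667 and no GC box. The starts of *Abcg5* and *Abcg8* shown here are 110 bases apart, and 209 bases belong to both windows. RefSeq has another start of *Abcg8* within the *Abcg5* gene record. That start is the one nearest the GENCODE 5′ end and the one used in the plot of CpG content. Its window had 21 CpG and a ratio of 0.663, whereas the *Abcg8* window shown above had 6 CpG and a ratio of 0.295. The choice of start therefore decided on which side of 0.6 *Abcg8* was counted. The levels by CpG group and rho were not computed with the *Abcg8* start shown above. The TATA box TATAAA was in the windows of *Abcg5* and *Abcg8* shown above, in the bases they share, and in 13.6% of all windows. Of the 26 windows used for the members, 4 held it (*Abca1*, *Abcg5*, *Abcg2* and *Abca4*), but not that of *Abcg8* at its other start. The E-box CACGTG was in 5 of the 26 windows and in 7.15% of all windows, and CCAAT in 7 of the 26 and in 37.4%. Both strands were searched for each motif. These are matches of letters only, and nothing was measured on the binding of a factor.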

How the data were processed

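Paired-end reads of stranded total RNA from 12 libraries were aligned by the authors to GRCm38 with HISAT2, converted to CPM with TMM normalization and fitted with limma and voom with genotype and sex as factors. The authors deposited 3 tables (genotype, sex and interaction) of 15838 genes each. The deposited mean level is in log2 CPM, is the same in the 3 tables (largest difference 0) and is not divided by length. The other columns hold the authors' own comparisons (log2 fold changes, moderated t, p-values, adjusted p-values and log-odds) and were not used, because findings were to come from measurements alone. The tables have no column per library, so depth and precision are unknown, no test was made and samples of the 4 groups were not compared. Versions, counter, annotation release and filter are not given in the sources used here.

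Members were found by symbol and biotype. Exonic lengths (the union of exons), coding lengths, transcript lengths and positions came from GENCODE M21 (GRCm38), which held 15824 of the 15838 genes and all 37 members under the same symbols. Promoter windows came from RefSeq (GRCm38.p6). Level per kilobase is log2 CPM minus log2 of the length in kilobases. Every member was to be named or counted, with full values for the 12 highest per kilobase and the highest and lowest of each subfamily. Some members and listed genes are not reported here by name, although counts and medians include them. Coding lengths are given in place of protein lengths, for which no table was at hand. Members and lists were chosen with earlier results of these data known. Python 3.11.15, pandas 2.3.3, numpy 2.4.6, scipy 1.17.1 and matplotlib 3.10.9 were used, and the union, level and percentile functions were tested on simulated data.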

Additional observations from a re-analysis of the deposited data

How the results depend on the processing

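The number of members at or above 1 CPM, 36, was 33 at 2 CPM and 26 at 10 CPM, each within 1.5 times. With members under 1 CPM left out, the median level went from 4.53 to 4.61 log2 CPM and the median per kilobase from 2.29 to 2.35. The median per kilobase was 3.18 with the coding length, 2.41 with the longest annotated transcript and 2.43 with the transcript of the longest coding sequence, the last chosen after seeing the data. The level of the median member was above 52.9% of protein-coding genes, above 61.0% of all genes of the tables, and above 51.9% of protein-coding genes when both were taken per kilobase. With each length both sides move, and the median member per kilobase was above 37.3% of protein-coding genes with the coding length, 45.3% with the longest transcript and 42.4% with the transcript of the longest coding sequence. Over the 4 lengths a member's rank moved by 2 places at the median and by 9 at most, 10 members kept a rank of 12 or better, and 10 stayed among the 10 lowest. No replicate could be left out and no spread computed, because the tables hold 1 mean per gene. No paired analysis was possible because no value per library was used and no test was made.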

Other observations

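Beside the 37 ABC members, the 252 solute carrier (Slc) genes, the other large family of membrane transporters, had a median of 1.60 log2 CPM per kilobase of exonic length against 2.29 for the ABC members, and the order turned with the coding length, at 3.42 against 3.18. With the longest transcript the medians were 2.04 and 2.41, and with the transcript of the longest coding sequence 2.22 and 2.43. The Slc genes spanned a wider range, from -4.10 to 8.64 log2 CPM per kilobase of exonic length, and 58.7% of them stood at or above 10 CPM, beside 70.3% of the ABC members. No test of the difference between the families was made, since the genes of a family are not replicates.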
